A study of Mus musculus with 18 samples.

Results

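The CD49a-linked expression programme shared by metastasis and surrounding liver was measured in 12 of the 18 sequencing libraries, those of sorted type 1 lymphocytes. The 6 libraries of CD49a+ cells were set against the 6 of CD49a- cells, with the change averaged over both sites, and the genes were then read at each site for movement in the same direction. Of the 54309 genes in the count table, 13594 passed the filter on low counts and were tested.

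All cells came from livers of female C57BL6/J mice, 8 to 10 weeks old, analyzed 20 days after injection into the spleen of MC38, a mouse colon adenocarcinoma line that seeds liver metastases (LM). The cells sorted from LM were CD49a+ NK cells, which also carried CD49b, and CD49a- NK cells, likewise CD49b+. Metastasis-free liver (MFL) gave ILC1, which were CD49a+ but CD49b-, and NK cells with the CD49a-CD49b+ phenotype. All 4 populations were lineage-negative CD45+NKp46+, and each had 3 libraries from pools of 6 to 8 samples. The titles of the LM CD49a+ libraries call them ILC1 whereas their cell type label reads CD49a+ NK cells, so the label of the sorted population was used. LM was digested with enzymes and MFL was smashed and filtered, and the CD49a+ gate took CD49b+ cells in LM but CD49b- cells in MFL. Site, dissociation and, for the CD49a+ cells, the CD49b gate therefore cannot be told apart.

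CD49a is the α1 chain of the collagen- and laminin-binding integrin α1β1 and is encoded by Itga1. In liver it marks ILC1, lymphocytes that stay in the tissue, develop with little need of Eomes and use the transcription factor Hobit (Zfp683). Conventional NK cells carry CD49b (Itga2), the α2 chain, recirculate through blood and depend on Eomes and T-bet. NK cells can also gain CD49a in tissues and tumors rich in TGF-β while keeping Eomes, and a comparison that averages both sites asks which genes accompany CD49a in either kind of cell.

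The libraries held between 8795721 and 14386834 counts, of which mitochondrial and small RNA genes took 3.68% to 15.2%. Scatter between replicates, given as the biological coefficient of variation of a gene, was 1.09 in LM CD49a+ and 1.25 in LM CD49a- NK cells, against 0.657 in ILC1 and 0.517 in MFL NK cells. Levels are CPM, counts scaled to the TMM-normalized size of a library, given in the order of the replicates, and changes are log2 fold changes ± standard error. A gene was called at an adjusted p under 0.1. In such bulk libraries, fewer cells of a type and less RNA per cell cannot be told apart.

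The 2 genes of the sort serve as a check and are no finding where the gates set them, which holds for Itga1 at both sites and Itga2 in MFL. Itga1 stood at 105 to 156 CPM in LM CD49a+ cells, 5.83 to 17.1 in LM CD49a- cells, 646 to 680.4 in ILC1 and 6.93 to 20.1 in MFL NK cells. Itga2 stood at 65.7 to 219, 241 to 333, 25.3 to 54.2 and 299 to 376 CPM in the same order. Both LM populations were CD49b+, so the gates did not require the Itga2 change within LM, which was −1.19 ± 0.36 and not called (adjusted p = 0.292 in edgeR). Ncr1, which encodes NKp46 of the shared gate, had 495 to 752, 612 to 790.3, 894 to 1043 and 866 to 1076 CPM. Tbx21, the gene of T-bet, was present in all 12 libraries at 348 to 383 CPM in LM CD49a+ cells and 323 to 379 CPM in ILC1. Eomes separated the CD49a+ populations, with 499.9 to 902 CPM in LM and 7.58 to 40.2 CPM in ILC1, as the cell type labels of the libraries name them.

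Markers of other cells moved with CD49a in part. The summed B cell list was 117.4 to 124.1 CPM in LM CD49a+ cells against 15.9 to 101.0 CPM in LM CD49a- cells, and 144.9 to 187.6 CPM in ILC1 against 30.9 to 82.4 CPM in MFL NK cells. Ighm made up most of it, while Ms4a1 and Cd79a, which define B cells, never passed 0.394 CPM and Pax5 had 0 counts. A tumor epithelium list was also higher at both sites, at 43.6 to 99.7 against 15.0 to 25.96 CPM in LM and 71.6 to 168.3 against 18.5 to 30.4 CPM in MFL. It holds Cdh1 and Epcam, which are described with the genes below, and its keratins Krt8, Krt18 and Krt19 reached at most 1.26 CPM in any library. A neutrophil list did not overlap in MFL, at 109.6 to 155.5 CPM in ILC1 against 0 to 1.40 CPM in NK cells, and was at most 2.09 CPM in LM. In ILC1 it consisted almost wholly of Mmp9, with 7 of its 14 members at 0 in all libraries and S100a8 and S100a9 at or below 0.190 CPM. Mpo, also of neutrophils, reached 2.09 CPM in LM CD49a+ cells, 0 in LM CD49a- cells, 2.29 in ILC1 and 0.514 in MFL NK cells. A dendritic cell list and the T cell receptor genes were higher in ILC1 than in MFL NK cells, and the hepatocyte, macrophage, endothelial and erythroid lists overlapped between the populations at both sites. Of single macrophage markers, Csf1r reached 6.41 CPM in LM CD49a+ cells, 0 in LM CD49a- cells, 15.9 in ILC1 and 3.43 in MFL NK cells. Adgre1, C1qa and Clec4f never passed 2.95 CPM in any library. The part of other cells in the results was not tested.

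Averaged over both sites, 188 genes were higher in CD49a+ cells (1.38% of the genes tested) and 261 were lower (1.92%), 449 in all (3.3%). An average can rest on a single site, so each called gene was read at both. Of the higher genes, 181 of 188 had the same sign at both sites, and of the lower genes 241 of 261. The change was the smaller one in LM for 157 of the higher and 220 of the lower genes. The higher genes had a median log2 change of 1.01 in LM and 2.20 in MFL, and the lower genes of −0.72 and −1.96. Over all genes tested the medians were 0.01 in both, and 53.1% had the same sign at both sites. Choosing genes by their average itself favours like signs and one-sided medians, so these values describe the called genes and do not test them. Within LM, 7 of the higher and 6 of the lower genes were called.

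**Figure D1:**
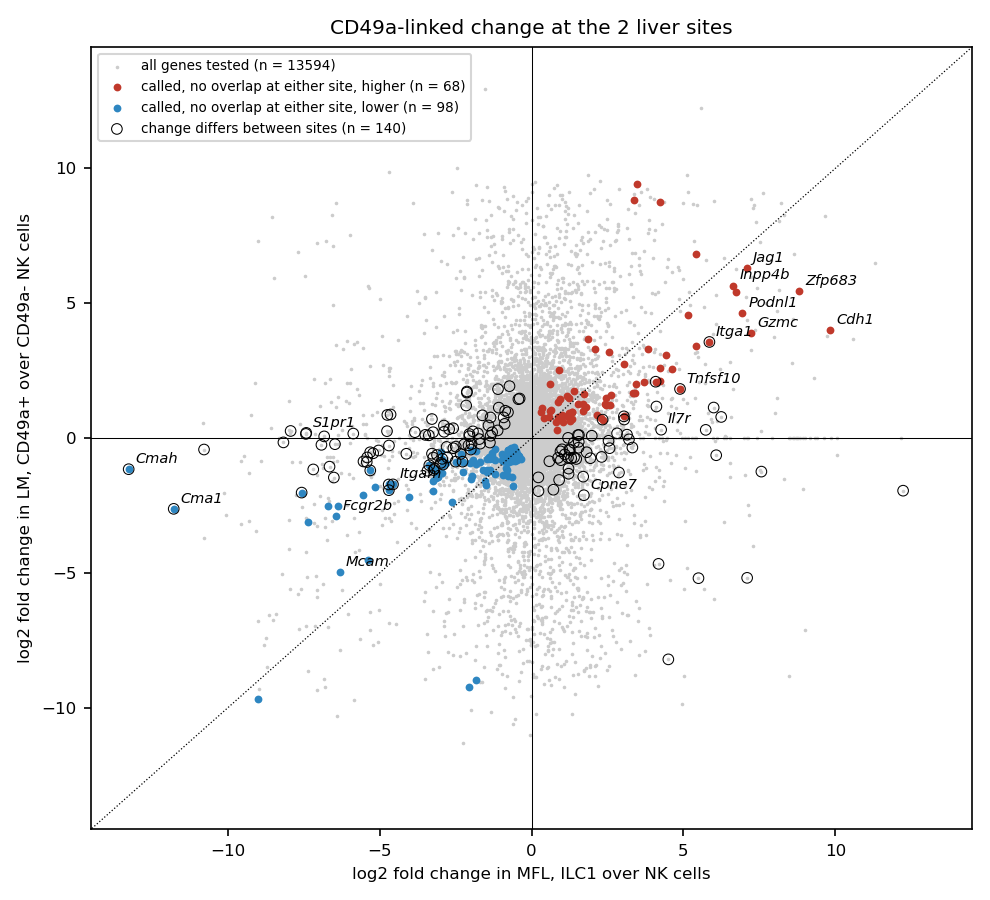
Log2 fold change between CD49a+ and CD49a- cells in MFL (x axis) and in LM (y axis) for the 13594 genes tested, one point per gene. Red and blue points are the 68 and 98 genes called for the average change whose 3 CD49a+ libraries all lay on one side of the 3 CD49a- libraries at both sites, and rings mark the 140 genes whose change differed between sites; the dotted line marks equal change, and the change is smaller in LM than in MFL for 48 of the red and 74 of the blue points.

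A stricter reading asked that the 3 CD49a+ libraries all lie above, or all below, the 3 CD49a- libraries at each site. By this measure 141 of the genes tested were higher at both sites (1.04%) and 162 were lower at both (1.19%), whereas 152 lay apart in opposite directions (1.12%). Among the genes called for the average change, 68 higher genes (0.5% of those tested) and 98 lower genes (0.721%) met it, Itga1 and Itga2 included. Their median log2 changes were 1.58 in LM and 2.31 in MFL for the higher genes, and −0.92 and −1.48 for the lower. In all, 28 of these higher and 39 of these lower genes were called at neither site by itself. Separate calls at each site were uneven in number. Within LM 9 genes were higher (0.0662%) and 10 lower (0.0736%), 19 in all (0.14%), and within MFL 188 were higher (1.38%) and 228 lower (1.68%), 416 in all (3.06%). The LM count depended on the test, with 543 genes called by DESeq2 and none by limma-voom, which had 746 genes at an unadjusted p under 0.05 where edgeR had 1579.

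Since no library is common to the comparisons at the 2 sites, genes called in MFL could be read in LM. Both comparisons still came from a single fit with shared normalization and spread, so the reading is no independent replication. Of the 188 genes higher in ILC1 than in MFL NK cells, 141 (75.0%) were also higher in LM CD49a+ cells by sign, against 50.5% of all genes tested. In LM, 40 of them (21.3%) had all CD49a+ libraries above all CD49a- libraries, against 5.72% of all genes, and 7 had them below. Of the 228 genes lower in ILC1, 186 (81.6%) were lower in LM CD49a+ cells by sign, against 48.3% of all genes, and 59 (25.9%) had no overlap in LM, against 4.10% of all. The changes were small in LM, with a median of 0.44 for the genes higher in ILC1, which rose by a median of 1.98 in MFL, and of −0.49 for the genes lower in ILC1, where MFL had −2.08. In the other direction, 7 of the 9 genes higher and 6 of the 10 lower in LM were called the same way in MFL. Over all genes the changes at the 2 sites had a Pearson r of 0.15 and a Spearman rho of 0.11, across genes, which are not independent replicates.

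The genes that moved most at both sites were taken by the smaller of their changes in LM and MFL, among 65 higher genes with a mean of at least 5 CPM. Jag1, a ligand of Notch receptors, led them and lies at chr2:136923373-136958693 of GRCm39. It had 1.94, 14.8 and 6.28 CPM in LM CD49a+ cells, 0, 0 and 0.236 in LM CD49a- cells, 20.03, 21.5 and 13 in ILC1 and 0, 0.221 and 0.147 in MFL NK cells. Every CD49a+ library lay above every CD49a- library, although levels were low. The average log2 change was 6.69 ± 1.27 (adjusted p = 0.00578). In LM only 3 counts stood on the CD49a- side, and the ratio of 84.0 there has a counting interval of 28.4 to 409.7. Inpp4b, a phosphatase of phosphoinositides that tempers PI3K signaling, lies at chr8:82069185-82854543. It was measured at 107, 59.5 and 80.8 CPM in LM CD49a+ cells and at 3.01, 1.22 and 0.788 in LM CD49a- cells, and at 421, 447 and 432 in ILC1 and 0.245, 7.52 and 5.21 in MFL NK cells. The groups stood far apart at both sites, by 5.65 ± 0.72 in LM (adjusted p = 0.00307) and 6.64 ± 0.72 in MFL (adjusted p = 2.21e-05).

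The promoters of these leading genes, and of Mcam and Mag, which led the lower genes, are shown so that members that moved together can be compared at their start sites. They run from 250 bases before the start to 50 bases from it on, 5′ to 3′ in the direction of the gene, from RefSeq on GRCm38.p6. Capitals mark matches, on either strand, to the letters searched: GCGTG (the core bound by the aryl hydrocarbon receptor), GGTGTGA (T-box), TGTGGTT (RUNX), GTCTG (the SMAD element) and GGGTGTG (KLF), of which the T-box and KLF letters can overlap.
Jag1, chr2:137116471-137116770, minus strand: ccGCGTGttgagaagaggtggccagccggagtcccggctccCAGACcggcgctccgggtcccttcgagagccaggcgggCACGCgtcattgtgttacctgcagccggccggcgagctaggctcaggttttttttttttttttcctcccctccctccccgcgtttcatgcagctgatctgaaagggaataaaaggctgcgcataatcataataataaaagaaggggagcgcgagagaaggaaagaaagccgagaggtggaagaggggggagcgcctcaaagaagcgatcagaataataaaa
Inpp4b, chr8:81342312-81342611, plus strand: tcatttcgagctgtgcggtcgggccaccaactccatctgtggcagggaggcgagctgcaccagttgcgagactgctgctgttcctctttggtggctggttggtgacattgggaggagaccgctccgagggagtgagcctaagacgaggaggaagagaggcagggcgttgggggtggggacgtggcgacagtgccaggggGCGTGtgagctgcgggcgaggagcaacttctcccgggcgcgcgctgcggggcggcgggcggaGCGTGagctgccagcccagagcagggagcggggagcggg
Mcam, chr9:44134408-44134707, plus strand: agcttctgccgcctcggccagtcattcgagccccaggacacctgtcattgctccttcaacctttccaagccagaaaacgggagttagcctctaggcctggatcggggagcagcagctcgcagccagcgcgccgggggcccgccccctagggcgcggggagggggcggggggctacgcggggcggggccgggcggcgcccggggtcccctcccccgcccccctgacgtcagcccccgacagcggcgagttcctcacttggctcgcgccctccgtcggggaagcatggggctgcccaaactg
Mag, the first of 3 starts listed, chr7:30914814-30915113, minus strand: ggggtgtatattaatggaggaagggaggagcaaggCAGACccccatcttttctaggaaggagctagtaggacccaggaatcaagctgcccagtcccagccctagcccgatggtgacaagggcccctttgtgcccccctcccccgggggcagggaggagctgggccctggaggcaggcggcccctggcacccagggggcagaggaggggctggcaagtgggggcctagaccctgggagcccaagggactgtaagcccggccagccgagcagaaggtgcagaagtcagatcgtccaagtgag

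Jag1 and Inpp4b each held 2 matches to GCGTG, Jag1 and Mag 1 match each to GTCTG, and Mcam none of the 5. Such letters are common: of 32851 promoters in the RefSeq table, 32.4% held GCGTG, 3.98% GGTGTGA, 5.27% TGTGGTT, 49.6% GTCTG and 7.95% GGGTGTG. A promoter was found for 42 of the 68 shared higher genes, 73 of the 98 shared lower genes and 9180 genes tested. GCGTG was in 52.4% of the shared higher promoters, 41.1% of the shared lower ones and 51.8% of those of genes tested. GTCTG was in 50%, 50.7% and 47.3%, and GGTGTGA in 2.38%, 8.22% and 3.24%, or 1 and 6 promoters of the shared sets. A match is a run of letters and does not show that a factor binds there.

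Regulators and signaling proteins followed among the higher genes. Zfp683, which encodes Hobit, had 217, 236 and 204 CPM in ILC1 and at most 0.808 CPM in MFL NK cells. In LM it had 8.81, 0.391 and 0.797 CPM in CD49a+ cells and 0.111, 0 and 0.0788 in CD49a- cells, so that the LM level rested on a single CD49a+ library. Camk4, a calcium- and calmodulin-dependent kinase, had 9.01, 1.88 and 2.99 CPM against 0, 0 and 0.0788 in LM and 36.4, 21.3 and 9.85 against 0.245, 0.369 and 0.954 in MFL. Both genes had 2 counts or fewer in all LM CD49a- libraries together, with LM ratios of 48.1 (counting interval 13.0 to 402.9) for Zfp683 and 136.1 (24.1 to 5413) for Camk4. Parp12, an ADP-ribosyltransferase induced by interferon, had 26.1, 15.8 and 27.4 against 0.780, 0 and 6.14 CPM in LM and 15.4, 26.1 and 47.8 against 1.55, 3.02 and 1.62 CPM in MFL. Its average log2 change of 3.57 ± 0.86 (adjusted p = 0.0331) joined 3.30 ± 1.20 in LM and 3.84 ± 1.23 in MFL, neither of them called (adjusted p = 0.375 and 0.158). The average call was lost without ILC1 replicate 3 (adjusted p = 0.145), MFL NK replicate 1 (0.111) or MFL NK replicate 3 (0.109).

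Surface and matrix proteins made up a further group. Sema6d, a transmembrane semaphorin, had 42.9, 11 and 21.9 CPM in LM CD49a+ cells and was at 0 in a pair of LM CD49a- libraries and at 1.58 CPM in the remaining one. ILC1 had 204, 168 and 176 CPM and MFL NK cells 4.16, 0.958 and 0.0734 CPM, an average log2 change of 6.07 ± 0.78 (adjusted p = 1.45e-04). Cdh1 encodes E-cadherin, an adhesion molecule and ligand of the inhibitory receptor KLRG1. It was at 14.3, 18.4 and 51.5 CPM in LM CD49a+ cells against 0, 1.99 and 3.15 in CD49a- cells, and at 74.7, 46.8 and 46 CPM in ILC1 against 0, 0.147 and 0 in MFL NK cells. In MFL the ratio was 1098 with a counting interval of 303.6 to 9075, as MFL NK cells held 2 counts. Epcam, also of epithelia, reached 10.5 CPM in LM CD49a+ cells, 20.5 in ILC1, 2.53 in MFL NK cells and 0 in LM CD49a- cells. Podnl1, a leucine-rich repeat proteoglycan, had 3.97, 10.8 and 14.8 against 0, 0 and 1.02 CPM in LM and 147, 208 and 202 against 0.0817, 2.06 and 2.35 CPM in MFL, and overlaps Cc2d1a on the opposite strand.

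Gzmc was the member of the granzyme family among the shared genes. Its protein, granzyme C, is a serine protease of cytotoxic granules. LM CD49a+ libraries had 139, 53 and 28.6 CPM and LM CD49a- libraries 9.36, 0.222 and 5.199 CPM. In MFL, ILC1 had 167, 146 and 161 CPM and NK cells 1.06, 1.03 and 1.03 CPM. The log2 change was 3.90 ± 0.76 in LM (adjusted p = 0.0853) and 7.23 ± 0.90 in MFL (adjusted p = 8.58e-05). Without LM CD49a+ replicate 1, the highest of its group, the LM change was 3.03 (adjusted p = 0.290). The 12 were completed by Itga1, by AI661453, a gene of unknown function with an average change of 4.86 ± 1.00, and by the long noncoding RNA Gm43042 with 4.41 ± 0.72.

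**Figure D2:**
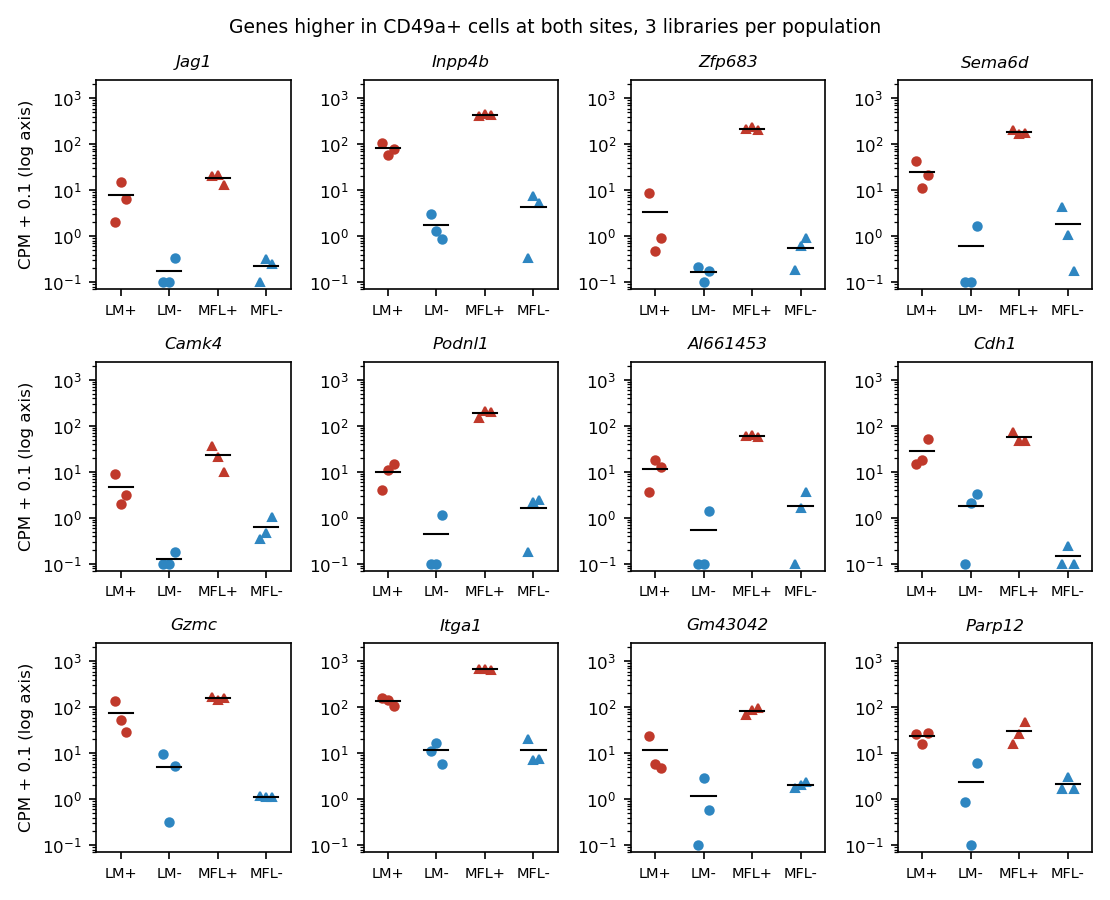
Level of the 12 genes that rose most at both sites, in CPM + 0.1 on a log axis, for LM CD49a+ NK cells (LM+), LM CD49a- NK cells (LM-), MFL ILC1 (MFL+) and MFL NK cells (MFL-). Each point is a library and each bar the mean of 3; red points (CD49a+) lie above blue points (CD49a-) at both sites in every panel, and the mean in ILC1 is above that in LM CD49a+ cells.

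Among the 95 lower genes with a mean of at least 5 CPM, Mcam, the adhesion molecule CD146, led and lies at chr9:44045504-44054025 of GRCm39. It had 0, 1.33 and 1.69 CPM in LM CD49a+ cells against 20.1, 21.3 and 55.5 in LM CD49a- cells, and 0.0849, 1.76 and 0.758 in ILC1 against 89.7, 63.5 and 58.4 in MFL NK cells. All CD49a+ libraries lay at or below 1.76 CPM and all CD49a- libraries at or above 20.1 CPM. The average log2 change was −5.65 ± 0.76 (adjusted p = 2.36e-04). Mag, a sialic acid-binding lectin best known from myelin and located at chr7:30598464-30614474, was at or below 1.20 CPM in every CD49a+ library, against 6.02, 22.3 and 3.702 CPM in LM CD49a- cells and 17.8, 16.6 and 11.8 in MFL NK cells. Its call (−4.95 ± 1.18, adjusted p = 0.0323) was lost without ILC1 replicate 2 (adjusted p = 0.10), MFL NK replicate 1 (0.104) or MFL NK replicate 2 (0.105).

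Several receptors were among the shared lower genes. Fcgr2b, the inhibitory IgG receptor, had 0, 9.54 and 6.38 CPM in LM CD49a+ cells against 41.9, 40.2 and 36.7 in CD49a- cells, and 0, 1.903 and 0.379 in ILC1 against 72.3, 62.8 and 69.1 in MFL NK cells. Klra10, of the Ly49 receptors for MHC class I, had 8.52, 15.4 and 0.996 against 32.1, 61.5 and 51.4 CPM in LM and less than 1 CPM in every ILC1 library against 45.7 to 70.7 CPM in MFL NK cells. The Ly49 genes are close copies of each other, and how reads were divided among them is uncertain. Cmklr1, the receptor of the chemoattractant chemerin, had 25, 57.3 and 33.8 against 179, 184 and 109.7 CPM in LM and 0, 2.05 and 0.758 against 250.1, 161 and 144 CPM in MFL. For Cmklr1 the change was larger in MFL (−7.57 ± 0.73) than in LM (−2.02 ± 0.55), and the difference passed the test (adjusted p = 0.00299).

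Cma1, mast cell chymase, a serine protease that mouse NK cells also transcribe, was the shared lower gene with the smallest p. LM CD49a+ cells had 9.78, 17.5 and 16.4 CPM and LM CD49a- cells 71.3, 80.7 and 118 CPM, a change of −2.63 ± 0.42 (adjusted p = 0.0268). In MFL a single count was found in the 3 ILC1 libraries against 188, 126 and 95 CPM in NK cells, a 4852-fold difference with a counting interval of 870.4 to 191700. Cells that carried CD49a thus lay below their CD49a- neighbours at both sites, with a retained level in LM alone. The interaction had an adjusted p of 3.67e-05. Without LM CD49a+ replicate 1 the LM change was −2.42 (adjusted p = 0.108).

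Intracellular proteins completed the 12. Dennd2b, an exchange factor of Rab GTPases, had an average change of −5.23 ± 0.88 (adjusted p = 0.00188) and Fbxl2, of an E3 ubiquitin ligase, of −4.61 ± 0.83 (adjusted p = 0.00373). Dennd2b overlaps Akip1, and Fbxl2 overlaps the more abundant Ubp1, on the opposite strand. The tyrosine kinase Fer (−2.50 ± 0.60), Khdc1a (−3.12 ± 0.85), the Rab GTPase-activating Tbc1d30 (−3.84 ± 1.03) and the mitochondrial aldehyde dehydrogenase Aldh2 (−2.62 ± 0.72) had adjusted p from 0.0317 to 0.0722. The last 3 lost the call in 5 or more of the 12 fits that left out a library, and Fer without MFL NK replicate 1 (adjusted p = 0.106).

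**Figure D3:**
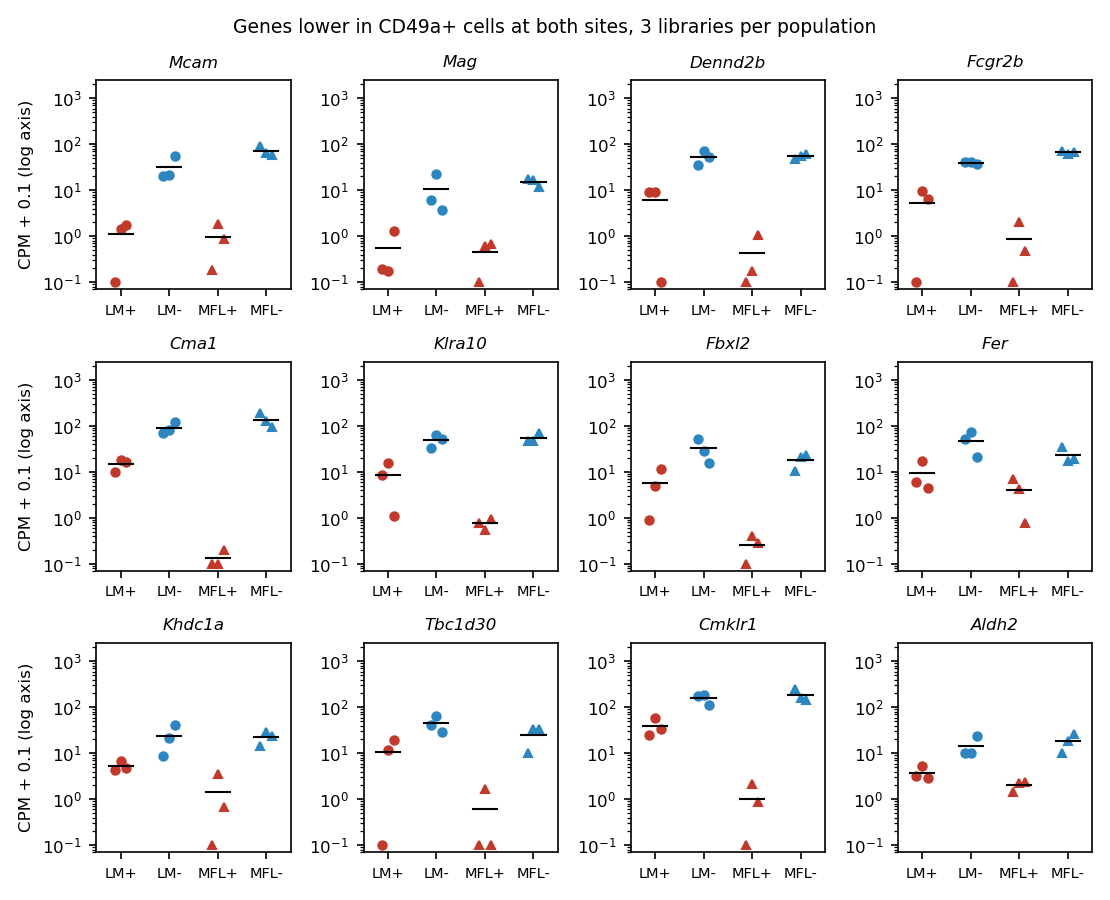
Level of the 12 genes that fell most at both sites, in CPM + 0.1 on a log axis, in the populations and with the symbols of the plot of higher genes. Blue points (CD49a-) lie above red points (CD49a+) at both sites in every panel, and red points of ILC1 (triangles) are mostly near the bottom of the axis.

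The demanding criterion of a call within each site separately was met by 13 genes in the same direction. The higher 7 were Inpp4b, Sema6d, Gzmc, Itga1, 2900026A02Rik, Serpina3g and Ubash3a (0.0515% of the genes tested), and the lower 6 were Cma1, Zeb2, Itga4, Itgam, Lpin1 and Rasgrp2 (0.0441%). A conjunction test, in which a gene's p is the larger of its 2 site p-values, called 7 genes (0.0515%), 3 higher (0.0221%) and 4 lower (0.0294%). Serpina3g, a protease inhibitor of lymphocytes, had 278, 231 and 239.5 against 118, 69.1 and 123 CPM in LM and 363, 327 and 396 against 133, 99.3 and 101 CPM in MFL. Its changes of 1.27 ± 0.25 and 1.70 ± 0.25 were among the closest to each other. Ubash3a, a regulator of signaling below antigen receptors, changed by 1.64 ± 0.33 in LM and 1.73 ± 0.33 in MFL, with 54.5 to 86.9 against 12.9 to 28.1 CPM in LM. 2900026A02Rik had 69.8, 53.7 and 85.2 against 21.7, 20.6 and 6.85 CPM in LM and 254 to 329 against 14.7 to 20.6 CPM in MFL.

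On the lower side, Zeb2, a repressor of transcription needed for terminal NK cell maturation, had 119.9, 139 and 137 CPM in LM CD49a+ cells against 415, 434 and 458 in LM CD49a- cells. It was still lower in ILC1, at 37.1, 28.5 and 11.7 against 689, 602 and 728 CPM. Itgam, which encodes CD11b of mature NK cells, had 136, 314 and 309 against 921, 758 and 821 CPM in LM and 31.6, 48.5 and 38.6 against 1165, 866 and 776 CPM in MFL. Itga4, the α4 chain through which lymphocytes bind VCAM-1, had 764, 756 and 794 against 1763, 1757 and 1544 CPM in LM and 224, 234 and 232 against 2329, 1826 and 2137 CPM in MFL. In each of these 3 genes the groups did not overlap, and the change in MFL exceeded that in LM (adjusted p for the difference from 0.00114 to 0.00231). Rasgrp2, an activator of the integrin-regulating GTPase Rap1, changed by similar amounts, −1.72 ± 0.33 in LM and −1.49 ± 0.33 in MFL, with an adjusted p of 0.975 for the difference. Lpin1, a phosphatidate phosphatase, had 80.6, 128 and 223 against 381, 466 and 364 CPM in LM and 37.6 to 60.6 against 387 to 455 CPM in MFL. The LM calls were fragile: Inpp4b and Itga1 kept theirs in all of 19 alternative fits but that by limma-voom, while Ubash3a lost its own in 13 and Lpin1 in 14 of 19. Leaving out LM CD49a+ replicate 1 ended the LM call of the other 11, with adjusted p up to 0.293.

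Genes of the liver ILC1 list cover surface markers, ligands and regulators of these cells. Most rose with CD49a, but the calls came mainly from MFL, with 21 members called higher there and 4 in LM. Of 28 members tested, 21 rose on average and 1 fell, against 1.38% and 1.92% of all genes tested. The median log2 change was 1.37 in LM and 3.34 in MFL, against 0.01 over all genes at either site. Itga1 of the gate is among the 21, and 10 members were higher without overlap at both sites, against 1.04% of all genes tested. Tnfsf10, which encodes the death ligand TRAIL, had 53.7, 105 and 55 against 37.7, 9.195 and 13.8 CPM in LM and 368, 449 and 430.3 against 16.3, 13.9 and 11.9 CPM in MFL. Cxcr6, the receptor of CXCL16 on liver sinusoids, had 126, 149.8 and 182 CPM in ILC1. In LM it had 0, 5.55 and 4.09 CPM in CD49a+ cells and 0 in all CD49a- cells, at least 34.6-fold higher over the groups, though 1 CD49a+ library was at 0 too. It overlaps Fyco1 on the opposite strand. The member that fell was Trdc, the constant region of the TCR δ chain, at −1.23 ± 0.25. Il21r was called on average at 1.58 ± 0.24 but was −0.05 in LM.

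The conventional NK list mirrored it. The 29 members tested had medians of −0.72 in LM and −3.50 in MFL, Itga2 of the gate included. Of these members, 22 fell and none rose, against 1.92% and 1.38% of all genes tested. None was higher by DESeq2 or limma-voom or at an unadjusted p under 0.05 in edgeR. The change differed between the sites for 16 of the 29 members, against 1.03% of all genes tested. Klra8, the Ly49H receptor, had 202, 161 and 143 against 314, 318 and 531 CPM in LM and 11.5, 6.95 and 15.8 against 496, 409.7 and 453 CPM in MFL. Klra7 and Klra3, other Ly49 receptors, and S1pr1 were called on average although their LM changes were above 0, at 0.12, 0.22 and 0.19. Both lists draw on what is known of ILC1 and NK cells of normal liver, but were chosen with earlier results of these data known. From these same libraries the paper had reported Itga1, Inpp4b, Gzmc and Sema6d as higher, and Itga4 and Itgam as lower, in LM CD49a+ cells. The LM counts that follow therefore describe the lists and are no independent test. In LM 4 ILC1 genes were called higher (Itga1 among them) and 4 NK genes lower, against 0.0662% and 0.0736% of all genes tested. By sign, 25 of 28 ILC1 genes were higher and 25 of 29 NK genes lower in LM, against 50.5% and 48.3%.

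**Figure D4:**
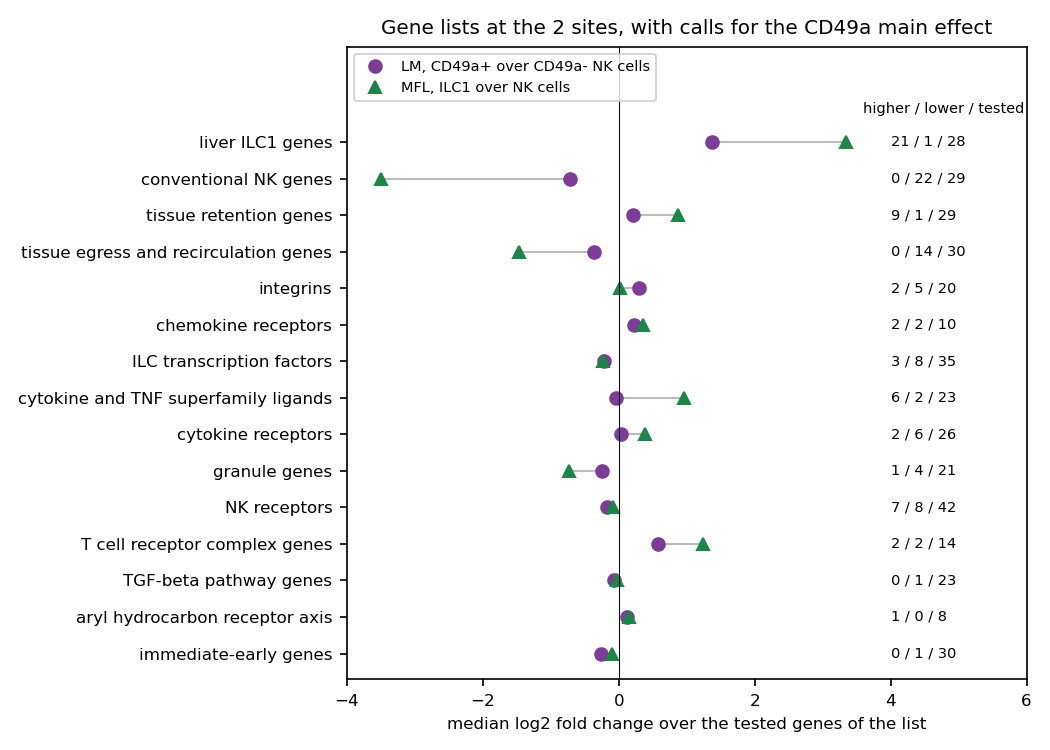
Median log2 fold change between CD49a+ and CD49a- cells over the tested genes of 15 lists, in LM (circles) and MFL (triangles). Numbers at the right give the members called higher, called lower and tested for the change averaged over both sites; for the ILC1 and conventional NK lists both sites lie on the same side of 0, with the MFL symbol farther out.

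Retention in tissue and exit from it were covered by separate lists. For these and the following lists, the called members stand against 1.38% of all genes tested that rose and 1.92% that fell. Of 29 retention genes, 9 rose and 1 fell (median 0.22 in LM and 0.87 in MFL), and Cdh1, Inpp4b, Cxcr6 and Zfp683 led those that rose. The member that fell was Prdm1, at −1.51 ± 0.27 (adjusted p = 0.00346 in edgeR). In LM 17 members had a positive and 12 a negative sign, against 50.5% and 48.3% of all genes tested. Only 1 was called higher there, against 0.0662% of all. Cd69, a membrane protein that holds lymphocytes in tissue, had an average change of 0.04. Of 30 egress and recirculation genes, 14 fell and none rose (median −0.37 in LM and −1.47 in MFL), none rising by DESeq2 or limma-voom or at an unadjusted p under 0.05 in edgeR either. In MFL all 30 had a negative sign, where the median over all genes was 0.01, and 19 were called lower, against 1.68% of all genes. In LM 20 had a negative sign, against 48.3% of all genes, and 10 a positive one. Only 2 were called lower in LM, against 0.0736% of all. Klf2, a transcription factor that drives S1pr1, had 525, 278 and 357 against 1454, 461 and 771 CPM in LM and 126, 115 and 61.8 against 1271, 1098 and 887 CPM in MFL, so that the LM groups overlapped. Klf3 had 74.2 to 97 against 129 to 156 CPM in LM and 30.6 to 47.9 against 274 to 314 CPM in MFL, with no overlap at either site. Rasa3, a GTPase-activating protein of Rap1 and Ras, changed by −0.59 ± 0.23 in LM and −2.34 ± 0.24 in MFL.

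Integrins and chemokine receptors split by member. Of 20 integrin chains, 2 rose (Itga1 and Itgb3) and 5 fell. Itgb3, the β3 chain of the vitronectin receptor, had 206, 119 and 159.6 against 73.8, 75.3 and 58.8 CPM in LM and 93.6, 84.7 and 74.5 against 11.3, 19 and 15.6 CPM in MFL, with no overlap at either site. Of 10 chemokine receptors, 2 rose and 2 fell. Cxcr3, the receptor of the interferon-induced chemokines CXCL9 and CXCL10, had 29.3, 60.7 and 20.8 against 5.35, 22.8 and 6.14 CPM in LM, where 1 pair of libraries overlapped, and 81.4, 135 and 152 against 14.5, 21.5 and 13.9 CPM in MFL. Its average change was 2.29 ± 0.40 (adjusted p = 0.00265). Cx3cr1, the fractalkine receptor of mature NK cells, changed by −2.78 ± 0.77, a call lost in 6 of the fits that left out a library.

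Of 35 transcription factors, 3 rose and 8 fell, against 1.38% and 1.92% of all genes tested. Ahr, the aryl hydrocarbon receptor, rose by 2.49 ± 0.34 (adjusted p = 2.45e-04). It had 159, 89.9 and 163 against 41.8, 71.1 and 17.6 CPM in LM and 110.2, 105 and 102 against 5.47, 17.1 and 8.88 CPM in MFL, and the CD49a+ populations of both sites thus had like levels. Other members of its axis, among them Arnt and Tiparp, did not pass the test, and 1 of 8 was called. The T-box gene Tbx21 was not called (−0.36 ± 0.15, adjusted p = 0.352). Zeb2, described above, fell at both sites, whereas Klf2 and Eomes fell in MFL and were not called in LM (adjusted p = 0.286 and 0.730).

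Soluble and membrane ligands also changed. Of 23 cytokine and TNF superfamily ligands, 6 rose and 2 fell. Tnfsf8, which encodes CD30 ligand, had 15.3, 11.6 and 9.37 against 1.34, 0.111 and 2.76 CPM in LM and 86.8, 67.5 and 54.5 against 5.06, 3.24 and 1.39 CPM in MFL, with no overlap. Xcl1, a chemokine that draws cross-presenting dendritic cells, rose by 1.94 ± 0.33, and its LM groups overlapped. Ccl5, a chemokine of cytotoxic lymphocytes, fell by similar amounts at both sites, −1.11 ± 0.30 in LM and −0.85 ± 0.30 in MFL (average adjusted p = 0.0149). Neither site change was called by itself (adjusted p = 0.270 and 0.227 in edgeR). Of 26 cytokine receptors, 2 rose and 6 fell. Il18rap, a chain of the IL-18 receptor, had 448, 420.4 and 700.5 against 1319.5, 970.1 and 1472 CPM in LM and 268, 195 and 173 against 959.5, 871 and 1213 CPM in MFL. Il18r1, the other chain, fell in MFL (−2.58 ± 0.25) and changed by −0.38 ± 0.24 in LM, and this difference passed the test (adjusted p = 0.00331).

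Of 21 granule genes, Gzmc rose, 4 fell and 16 did not pass the test. Prf1, which encodes the pore-forming protein perforin, had 491, 629.6 and 748 against 865, 1214 and 1349 CPM in LM and 233, 203 and 224 against 1571, 1171 and 994 CPM in MFL, without overlap. Of 42 NK receptors, 7 rose and 8 fell. Cd7 had 120.5, 165 and 136 against 73.3, 116 and 52.4 CPM in LM and 894, 974 and 954 against 122, 135 and 87.1 CPM in MFL, and Klra4 fell, with a change of −3.49 ± 0.47. Of 14 T cell receptor complex genes, 2 rose and 2 fell. Cd3g, a chain of the CD3 complex, had 224, 522 and 668 against 4.41, 9.43 and 4.77 CPM in MFL and 35.7, 13.8 and 1.69 against 16, 7.98 and 5.91 CPM in LM, where the groups overlapped. Trbc2 was higher at 1.41 ± 0.28 and Cd247, the ζ chain used by NKp46 too, lower at −1.17 ± 0.22. Of genes that define T cells, Cd3e never passed 2.97 CPM in any library, while Trac, Cd8a and Cd4 reached 11.6, 6.28 and 5.09 CPM in ILC1 and 3.23, 0.147 and 0.220 CPM in MFL NK cells. Trac also reached 10.95 CPM in LM CD49a- cells. In edgeR, TGF-β pathway genes held 1 call in 23, near the 3.3% of all genes tested that were called in either direction. It was Smad3, which transduces the signal and had a change of −0.91 ± 0.17 (adjusted p = 0.00609). DESeq2 called 2 of the 23 higher and 2 lower, and limma-voom 3 lower. Over the 13594 genes tested, DESeq2 called 394 higher and 430 lower, and limma-voom 270 and 439. Immediate-early genes, which tissue dissociation can induce, held 1 call in 30 in edgeR, again near the 3.3% of all genes. It was Ier2 at −0.91 ± 0.22, a call lost without MFL NK replicate 1 (adjusted p = 0.103). DESeq2 called 2 of the 30 and limma-voom 7, all lower, beside the 430 and 439 lower calls over the 13594 genes tested.

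Some genes linked to CD49a at 1 site were not at the other. The change differed between LM and MFL for 140 genes (1.03% of those tested), with the LM change above that in MFL for 85 (0.625%) and below it for 55 (0.405%), and 24 of the 188 higher and 66 of the 261 lower genes among them. Eomes changed by −0.46 ± 0.41 in LM and −5.04 ± 0.49 in MFL (adjusted p for the difference = 0.00105). S1pr1, the receptor that guides lymphocytes out of tissue, had 35.3, 50.6 and 55.7 against 25.5, 73.7 and 24.9 CPM in LM but 0.594, 0.0732 and 0 against 32.9, 48.4 and 38.6 CPM in MFL. Myb, a transcription factor of progenitors, had 116, 151 and 323 against 200.2, 106 and 225 CPM in LM and 0, 1.32 and 0 against 48.8, 97.9 and 106 CPM in MFL. Cxcr4, the receptor of CXCL12, was at or below 2.63 CPM in ILC1 and at 92.7 to 723 CPM in LM CD49a+ cells. Il7r, the IL-7 receptor chain of helper-like ILC, had 73.6 to 182 against 5.96 to 6.19 CPM in MFL and 12.4 to 36.2 against 8.59 to 22.8 CPM in LM, where the groups overlapped.

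The genes with the largest interactions were at or near 0 in 1 or more populations. Cmah, which makes the sialic acid Neu5Gc, had no count in ILC1 against 81.7, 107 and 129 CPM in MFL NK cells, at least 1282-fold lower, and 6.78, 45.3 and 44 against 46.6, 101 and 66.5 CPM in LM. Wdr95 had no count in ILC1 either, at least 223.6-fold lower, and overlapped in LM. Sema6a had 2 counts in ILC1, a 274.8-fold difference with a counting interval of 75.7 to 2274, and 4.45 to 57 against 12.2 to 26.4 CPM in LM. In the other direction Tmem273 had 53.5, 50.6 and 51.3 CPM in ILC1 and no count in MFL NK cells, at least 680.3-fold higher, and 1 count in all LM libraries. Tle2, a corepressor, had 21.4, 28.8 and 35.3 CPM in ILC1, Ccdc136 43.8, 109 and 131 CPM and Bmp7, a growth factor of the TGF-β superfamily, 17.4, 21.1 and 16.1 CPM, and all 3 were at or below 0.469 CPM in LM CD49a+ cells. MFL NK cells had 0 to 0.440, 1.55 to 2.42 and 0.367 to 1.03 CPM of them. In LM CD49a- cells Tle2 had 0, 0 and 1.103 CPM, Ccdc136 2.12, 17.8 and 0 and Bmp7 9.14, 0 and 0.394, so that their LM level rested mostly on a single library each. The calls of Bmp7 and Tle2 were lost in 10 and that of Tmem273 in 6 of the 12 fits that left out a library. Cpne7, of the calcium-binding copines, was the 1 gene called in opposite directions (0.00736% of those tested), lower in LM CD49a+ cells at 21.3, 14.8 and 16.2 against 65.2, 58.9 and 103 CPM and higher in ILC1 at 281, 186 and 234 against 89.1, 54.4 and 69 CPM.

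**Figure D5:**
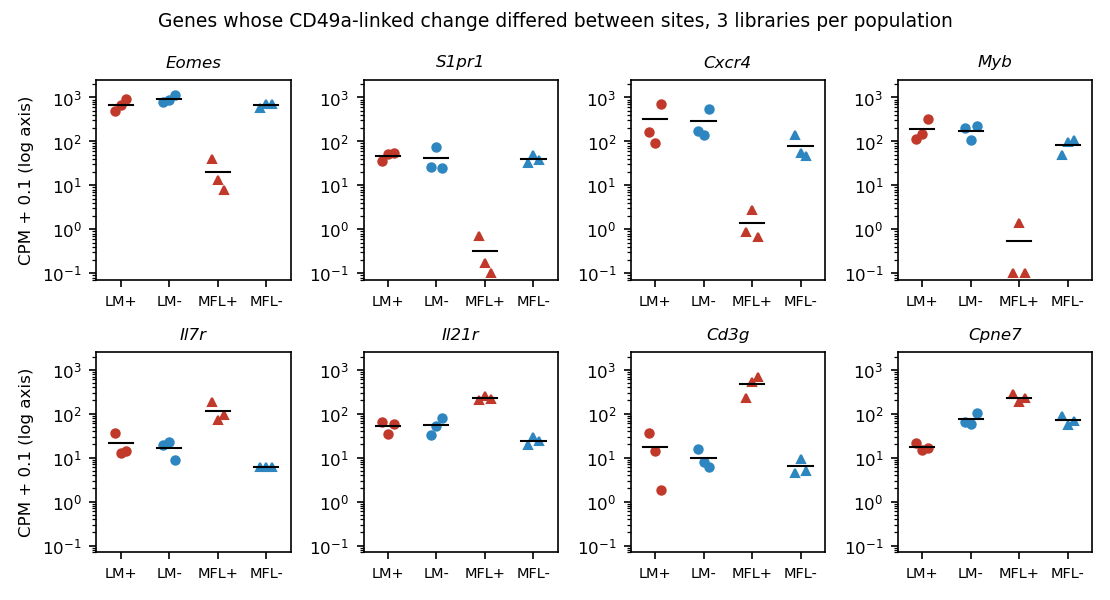
Level of 8 genes whose CD49a-linked change differed between the sites, in CPM + 0.1 on a log axis, one point per library and a bar at the mean of 3. Eomes, S1pr1, Cxcr4 and Myb fall in ILC1 (MFL+) and overlap between LM+ and LM-, Il7r, Il21r and Cd3g rise in ILC1 and overlap in LM, and Cpne7 moves in opposite directions.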

How the data were processed

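RNA of sorted type 1 lymphocytes was made into stranded total RNA libraries (SMARTer Pico Input), and the reads were trimmed with trim-galore. The authors quantified GENCODE M27 transcripts (GRCm39) with Salmon v1.5.0, and tximport v1.28.0 gave gene totals. Deposited were estimated counts, not normalized and already whole numbers. Names and gene positions came from GENCODE vM39, which held 53700 of 54309 IDs. Macrophage libraries were not used here.

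One edgeR v4.0.16 quasi-likelihood fit in R v4.3.3 held all 12 libraries, with filterByExpr, TMM and a term per population. Contrasts were the mean of the 2 site changes, the change within LM and within MFL, and their difference, each with p-values adjusted by Benjamini-Hochberg over 13594 genes and called under 0.1, a false discovery rate the study also used. The conjunction test took the larger site p where signs agreed and 1 otherwise. Standard errors are the change divided by the square root of F and are approximate. Folds with few counts are ratios of summed counts with exact intervals, or, where one group had none, lower bounds against 3 counts over the group, and cover counting error only. P-values measure the spread between pooled libraries, and an exact permutation test of 3 against 3 could not go below 0.1. The script was checked on simulated counts.

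The text names, per direction, the 12 genes with the largest smaller-of-2 site change among genes called on average, with no overlap at either site and a mean of at least 5 CPM, 4 interaction genes per direction, and up to 4 called genes per list by p with any called member of unlike signs. The genes called at both sites were named after their values were seen. Members and lists were chosen with earlier results of these data known. Alternatives were DESeq2 v1.42.0, limma-voom with sample weights (limma v3.58.1), DESeq2 size factors, 2 other filters, a replicate block, an additive model, separate fits per site and leaving out each library.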

Additional observations from a re-analysis of the deposited data

Results flagged for a closer look

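A difference between the CD49a-linked changes of LM and MFL flagged 140 genes over all genes tested, and the named ones follow as the log2 change in LM minus that in MFL. Among genes lower on average, the difference was 9.16 for Cma1, 5.55 for Cmklr1, 2.98 for Zeb2, 2.84 for Itgam, 2.06 for Itga4 and 2.04 for Itga2, so that each fell further in MFL. Genes of NK maturation and trafficking had 4.58 (Eomes), 7.61 (S1pr1), 6.04 (Cxcr4), 2.22 (Klf2), 2.17 (Klf3) and 1.75 (Rasa3). Receptors and signaling chains had 4.11 (Klra8), 3.62 (Klra7), 3.46 (Klra3), 2.20 (Il18r1), 1.51 (Il10ra), 1.81 (Cd247) and 1.99 (Trdc). The granule genes Prf1 and Serpinb9b had 1.63 and 5.59, the transcription factor Myb 7.58, and Cmah, Wdr95 and Sema6a 12.11, 10.36 and 8.20. The proliferation genes Mki67 and Top2a had 2.11 and 2.46.

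Among genes that rose further in MFL, the difference was −2.29 for Itga1, −1.996 for 2900026A02Rik, −3.07 for Tnfsf10, −3.25 for Il21r, −3.96 for Il7r, −2.23 for Cd7 and −5.46 for Cd3g. Cpne7, lower in LM and higher in MFL, had −3.84. The fitted values of Tmem273 (−14.18), Bmp7 (−12.71), Tle2 (−12.28) and Ccdc136 (−10.69) rest on LM CD49a+ cells at or near 0 and are no bounds of the difference. For Bmp7, Ccdc136 and Tle2 the LM CD49a- level came mostly from a single library each.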

How the results depend on the processing

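All 449 genes called on average that a fit tested kept their sign in it, and 0 were called in the other direction. Counts of calls moved more. DESeq2 called 394 higher and 430 lower genes on average, 543 within LM, 667 within MFL, 40 higher and 49 lower at both sites, 43 by conjunction and 349 for the difference between sites, and limma-voom 439 lower on average, 2645 within MFL and 0 within LM, at both sites in either direction or by conjunction. Without a low-count filter there were 301 higher genes, 200 within LM, 45 higher and 40 lower at both sites, 68 by conjunction and 264 that differed between sites. The stricter filter left 12 within LM and 4 higher at both sites, and the additive model 114 higher and 145 lower. Separate fits per site gave 11 within LM, 1213 within MFL, 2 higher at both sites and 4 by conjunction. The cause of these shifts was not tested.

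Leaving out each library in turn gave 112 to 343 higher and 161 to 326 lower genes, 5 to 267 calls within LM, 268 to 562 within MFL, 3 to 22 higher and 0 to 14 lower at both sites, 3 to 16 by conjunction and 75 to 256 for the difference. The most LM calls came without LM CD49a- replicate 3, which also moved the median of all genes to 0.11, and the fewest without LM CD49a+ replicate 1. The share of MFL calls with the same sign in LM stayed between 67.0% and 81.1% for higher and between 76.6% and 85.1% for lower genes. Same-numbered libraries had deviations from their group means that correlated at r from −0.045 to 0.098, no pair above 0.1. The numbers were therefore not taken to pair libraries in the main fit. Still, 9 of 12 libraries correlated best with their own number. The paper states that the pools came from independent sortings. Whether the replicate numbers follow those sortings is not stated, and the main fit held no term for them. A replicate block gave 15 conjunction calls, 180 higher and 251 lower genes on average, and under it the average change of Aldh2 (adjusted p = 0.159) and the interactions of Bmp7 (0.194), Tle2 (0.112) and Tmem273 (0.130) were no longer called. For single genes, 141 of the values with a library left out and 57 of the other alternatives lost the call, with 987 and 594 keeping it, and none reversed. Depth limits the folds of genes with few counts, given as bounds or with counting intervals.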

Other observations

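The following lists were examined after the data had been seen. Of 44 type I interferon response genes tested, 6 rose on average in CD49a+ cells and 0 fell (1.38% of all genes tested rose). At an unadjusted p under 0.05 in edgeR, 17 lay above and 1 below 0, against 11.9% of all genes in either direction. DESeq2 and limma-voom called 11 and 10 of them higher, against 394 and 270 of all 13594 genes tested. Their median log2 changes were 0.47 in LM and 0.56 in MFL. Ly6e, a GPI-anchored protein induced by interferon, had 508, 409.6 and 303 against 134, 294 and 128 CPM in LM and 502, 472 and 461 against 133, 154 and 126 CPM in MFL. Zbp1, a sensor of nucleic acids, had 137, 148 and 123 against 72, 89 and 73.5 CPM in LM and 104, 116 and 106 against 65.7, 81.9 and 71.7 CPM in MFL. Both genes had no overlap at either site. Ifit1, which binds viral RNA, had 52.6, 32.6 and 29.9 against 7.91, 0 and 1.02 CPM in LM, and its average change of 2.77 ± 0.76 (adjusted p = 0.0731) was lost in 9 of the 12 fits that left out a library. Zbp1 lost its call in 5 of them, and Ly6e in none. Parp12, described above, belongs to this list.

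Of 96 cell cycle genes tested, those of the S and G2/M phases distributed with Seurat v5.3.0, 0 were called on average by edgeR, DESeq2 or limma-voom. At an unadjusted p under 0.05 in edgeR, 4 lay above 0 and 1 below, against 11.9% of all genes in either direction. Their signs were unlike at the sites, with 73 above 0 in LM (median 0.57), against 50.5% of all genes, and 78 below 0 in MFL (median −0.60), where the median over all genes was 0.01. Within LM 1 was called higher, against 0.0662% of all genes, and within MFL 2 were called lower, against 1.68%. The change differed between sites for 3 of them, against 1.03% of all genes tested. Mki67, which encodes the proliferation antigen Ki-67, had 612, 331 and 667 against 396, 374 and 179 CPM in LM and 132, 140.2 and 59.4 against 224, 287 and 335 CPM in MFL. Top2a, a DNA topoisomerase of dividing cells, had 328, 235 and 231 against 101, 249.8 and 92.6 CPM in LM, where the groups overlapped, and 36.5, 52.8 and 25.2 against 102, 131 and 119 CPM in MFL.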
